A study of Mus musculus with 17 samples.

Results

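The caveolae genes are 6 genes whose proteins build caveolae: Cav1, Cav2, Cavin1, Cavin2, Cavin3 and Ehd2. They were followed in islets of C57BL/6 mice at 0, 24 and 48 h of culture after isolation. Their members were found as the probe sets that the platform's probe annotation pairs with 1 of these symbols and no other, which gave 15 probe sets of the 45037 tested and 6 of the 18193 genes measured. Cav1 and Cavin3 had 1 probe set each, Cav2 had 2, Cavin1 and Cavin2 had 3 each, and Ehd2 had 5. Pancreatic islets are clusters of endocrine cells threaded by a dense capillary bed. Per the labels, 6 batches of islets, each pooled from 4 mice, were split and harvested at 0, 24 and 48 h in F12K medium with fetal bovine serum and no other treatment. RNA of each portion was hybridised to 1 Affymetrix whole-genome mouse array. Of the 17 arrays used here, 5 were of 0 h, 6 of 24 h and 6 of 48 h islets; batch 5 enters without a 0 h array, which was not used here. Mice were pooled within a batch, so the spread between arrays of 1 time is that between pools and not between animals.

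Caveolae are small flask-shaped pits of the plasma membrane, abundant in endothelial cells, adipocytes, smooth muscle cells and fibroblasts. Caveolins are integral membrane proteins that oligomerise in the inner leaflet, and caveolin-1 is needed for caveolae outside striated muscle. Cavins are soluble proteins that assemble into a coat on caveolin-rich membrane, and the ATPase EHD2 sits at the neck of the pit and restrains its movement. The pits buffer membrane tension, take part in transcytosis and lipid uptake, and hold signalling proteins such as endothelial nitric oxide synthase. In islets the capillary endothelium is a known site of caveolae.

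The starts of the 3 genes with the largest measured falls in culture are shown first, since their probe sets carry most of the results. Each window runs from 250 bases before the RefSeq transcription start to 50 bases after it, 5′ to 3′ on the gene's strand, in build GRCm38.p6. Capitals mark matches, on either strand, to GGGCGG of the GC box, to CCAAT of the box of that name, to TATAAA of the TATA box, to AGGAAG of ETS factors, to GATAAG of GATA factors, to TGTTTA of forkhead factors and to TGANTCA of AP-1. Windows are Cavin2, chr1:51288876-51289175, plus strand; Cav1 at its upstream start, chr6:17306085-17306384, plus strand; and Cav2, chr6:17280935-17281234, plus strand.
Cavin2: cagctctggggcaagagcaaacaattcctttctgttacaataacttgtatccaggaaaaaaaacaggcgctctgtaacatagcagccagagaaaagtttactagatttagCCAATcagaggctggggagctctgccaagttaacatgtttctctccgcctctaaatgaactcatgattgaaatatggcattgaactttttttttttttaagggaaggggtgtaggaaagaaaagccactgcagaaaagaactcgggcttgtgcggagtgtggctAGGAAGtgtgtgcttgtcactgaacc
Cav1: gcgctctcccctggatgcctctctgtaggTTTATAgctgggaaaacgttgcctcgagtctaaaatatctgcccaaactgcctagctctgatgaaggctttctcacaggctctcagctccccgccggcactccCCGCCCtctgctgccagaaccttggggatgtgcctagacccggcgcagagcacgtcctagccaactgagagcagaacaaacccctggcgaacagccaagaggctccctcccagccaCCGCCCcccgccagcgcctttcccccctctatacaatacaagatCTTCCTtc
Cav2: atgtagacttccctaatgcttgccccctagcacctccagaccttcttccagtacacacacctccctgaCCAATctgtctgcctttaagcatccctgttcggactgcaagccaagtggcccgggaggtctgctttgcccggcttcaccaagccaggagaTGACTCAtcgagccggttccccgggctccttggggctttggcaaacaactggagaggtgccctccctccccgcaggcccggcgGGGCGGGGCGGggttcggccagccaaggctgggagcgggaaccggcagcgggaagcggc

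The Cavin2 window had a GC content of 43.3%, and held 1 CCAAT match at -140 and 1 ETS match at 25, counted from the start site. The Cav1 window had 59.3% GC with 2 GC boxes, 1 set of TATA letters on the opposite strand at -221 and 1 ETS match on the opposite strand at 43. The Cav2 window had 64.3% GC with 2 GC boxes that overlap by 1 base, 1 CCAAT match and 1 AP-1 match. Across 32851 RefSeq windows of the same length the median GC content was 52.7%. GGGCGG was found in 35.7% of them, CCAAT in 37.4%, TATAAA in 13.6%, AGGAAG in 35.4%, GATAAG in 7.44%, TGTTTA in 13.4% and TGANTCA in 7.81%. A match is a description of these letters only. Windows were given for 5 of the 6 genes. Cav2 and Cav1 are direct neighbours on chromosome 6, while Cavin1 lies on chromosome 11, Cavin2 on chromosome 1, and Cavin3 and Ehd2 on chromosome 7.

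The values are log2 RMA signals, and differences are log2 differences with the standard error (SE) of limma and Benjamini-Hochberg adjusted p over all 45037 probe sets, passing at an adjusted p under 0.05. The table's median of 3.52 served as a stand-in for background, as no detection call came with the values. Array medians lay between 3.47 and 3.57, and arrays correlated pairwise at 0.976 to 0.995 across probe sets. The 0 h array of batch 3 and the 24 h array of batch 5 correlated least with the others of their time; without both, 7 of the 15 member probe sets passed at 24 h and 6 at 48 h. All 6 measured beta cell markers were above the table median. The comparisons of 24 h and of 48 h with 0 h share the 0 h arrays. In bulk islets, fewer cells of a type and less RNA per cell cannot be told apart.

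Of the caveolins, Cav1 and Cav2 both fell within the first day and stayed at their lower levels on the second. Cav1 (1449145_a_at), the caveolin that oligomerises to form the pits, measured 6.99, 6.93, 7.38, 6.60 and 7.52 at 0 h. Its lowest, median and highest values were 3.69, 4.46 and 4.68 at 24 h and 4.11, 4.35 and 4.52 at 48 h. All cultured arrays lay below all 0 h arrays, with no overlap, and all 17 arrays were above the table median. It averaged 4.34 ± 0.36 at 24 h and 4.32 ± 0.15 at 48 h (SD, n = 6 each), against 7.08 ± 0.37 at 0 h (SD, n = 5). Cav1 was 6.72-fold lower at 24 h than at 0 h (log2 difference -2.75 ± 0.17 SE, adjusted p = 5.73e-09, limma, n = 6 and 5) and 6.79-fold lower at 48 h than at 0 h (-2.76 ± 0.17 SE, adjusted p = 4.53e-09, limma). Within batches it was lower in 5 of 5 at both times, by -3.36 to -2.20 at 24 h and by -3.33 to -2.29 at 48 h.

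Cav2, the caveolin that depends on Cav1 to reach the cell surface, had a probe set (1417327_at) at 5.83, 4.70, 5.98, 5.09 and 5.27 at 0 h. Lowest, median and highest values of it were 3.23, 3.50 and 3.69 at 24 h, and 2.88, 3.48 and 3.87 at 48 h. The cultured arrays again lay wholly below the 0 h arrays, with 2 of 6 arrays above the table median at 24 h and 3 of 6 at 48 h. The log2 difference was -1.89 ± 0.20 SE at 24 h against 0 h (adjusted p = 5.20e-06, limma) and -1.98 ± 0.20 SE at 48 h against 0 h (adjusted p = 4.09e-06, limma). With values under the table median raised to it, these falls were at least 3.50-fold and at least 3.41-fold. A second Cav2 probe set (1425955_at) stayed under the table median on every array, between 2.83 and 3.30, and did not pass at either time.

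Cavin2 (1416778_at), a cavin that binds phosphatidylserine and shapes the caveolar coat, had the largest measured fall of the 6 genes. It measured 6.89, 6.97, 6.65, 5.99 and 6.73 at 0 h. Its lowest, median and highest values were 2.50, 2.67 and 2.99 at 24 h, and 2.44, 2.59 and 2.89 at 48 h. All 12 cultured arrays were under the table median, whereas all 5 arrays at 0 h were above it. It averaged 2.72 ± 0.22 at 24 h and 2.64 ± 0.17 at 48 h (SD, n = 6 each), against 6.64 ± 0.39 at 0 h (SD, n = 5). The log2 difference was -3.92 ± 0.15 SE at 24 h (adjusted p = 1.29e-11, limma) and -4.00 ± 0.15 SE at 48 h (adjusted p = 6.05e-12, limma). Because the cultured levels were not separated from background, the fall is a bound, at least 8.70-fold at both times.

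The other Cavin2 probe sets were dim. One (1416779_at) was under the table median on all 17 arrays, with 2.97, 2.61, 2.30, 2.49 and 2.70 at 0 h, 2.03 to 2.14 at 24 h and 1.98 to 2.40 at 48 h. It passed at both times (-0.56, adjusted p = 0.000689 at 24 h, and -0.42, adjusted p = 0.00854 at 48 h, limma), with overlap at 48 h only. The third (1443832_s_at) averaged 3.15 ± 0.83 at 24 h (SD, n = 6), 2.92 ± 0.081 at 48 h (SD, n = 6) and 3.01 ± 0.30 at 0 h (SD, n = 5), and did not pass.

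Cavin1 (1424130_a_at) encodes the cavin needed for caveola formation with caveolin-1. It measured 4.14, 4.18, 3.92, 4.12 and 4.59 at 0 h. Lowest, median and highest were 3.01, 3.47 and 3.57 at 24 h, and 3.40, 3.53 and 3.68 at 48 h. The groups did not overlap, and the cultured arrays sat around the table median. Cavin1 fell by 0.79 ± 0.11 SE at 24 h (adjusted p = 0.000113, limma) and by 0.65 ± 0.11 SE at 48 h (adjusted p = 0.000996, limma), at least 1.58-fold and at least 1.52-fold. The other Cavin1 probe sets, 1421431_at and 1453891_at, lay between 2.76 and 4.22 and did not pass.

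Cavin3 (1423771_at), a cavin that joins the coat through cavin-1, measured 4.19, 4.05, 3.63, 3.65 and 4.43 at 0 h. Lowest, median and highest values were 3.25, 3.42 and 3.53 at 24 h, and 3.11, 3.33 and 3.83 at 48 h. The 24 h arrays lay below the 0 h arrays without overlap, while the 48 h array of batch 5 reached into the 0 h range. Cavin3 fell by 0.60 ± 0.14 SE at each time (adjusted p = 0.00823 at 24 h and 0.00879 at 48 h, limma), at least 1.38-fold and at least 1.33-fold. With the mean of 8 acinar genes as a covariate, the 48 h difference was -0.52 for Cavin1 (adjusted p = 0.107, limma) and -0.50 for Cavin3 (adjusted p = 0.249, limma). Neither passed, and without the covariate the differences were -0.65 and -0.60. The acinar mean was itself lower at 48 h (3.97, against 6.77 at 0 h), so this fit cannot fully separate it from time.

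**Figure D1:**
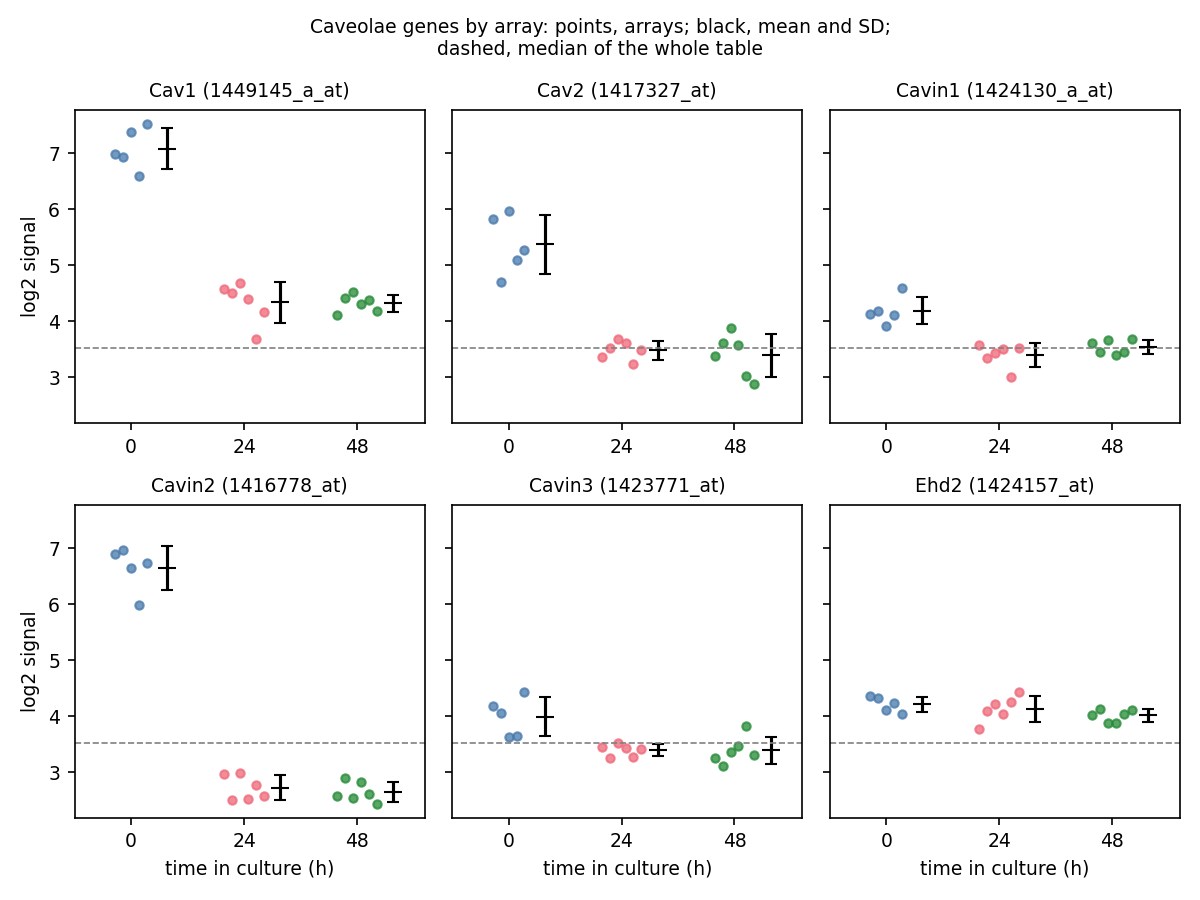
Log2 RMA signal of the representative probe set of each caveolae gene on every array at 0, 24 and 48 h, points for arrays and bars for the mean with SD (n = 5, 6 and 6), with the table median of 3.52 marked. Cav1, Cav2 and Cavin2 show the widest gaps to 0 h, and Ehd2 averages 4.21, 4.13 and 4.01 at 0, 24 and 48 h.

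The Ehd2 probe sets were not alike in their calls, and a difference between them was not tested. Its brightest (1424157_at) measured 4.35, 4.32, 4.11, 4.23 and 4.03 at 0 h. Lowest, median and highest were 3.76, 4.16 and 4.44 at 24 h, and 3.88, 4.04 and 4.13 at 48 h. The times overlapped, and neither difference passed: -0.08 (95% interval -0.29 to 0.13, adjusted p = 0.764, limma) at 24 h and -0.19 (-0.40 to 0.02, adjusted p = 0.279, limma) at 48 h. A dimmer one (1435785_at) passed, with 3.46, 3.46, 3.33, 3.18 and 3.58 at 0 h, 2.89 to 3.17 at 24 h and 2.80 to 3.35 at 48 h. Its 24 h arrays lay below the 0 h arrays, and its 48 h arrays overlapped them. Its differences were -0.35 ± 0.10 SE (adjusted p = 0.0282, limma) at 24 h and -0.33 (adjusted p = 0.0426, limma) at 48 h, with 1 array above the table median in all. With values raised to that median, its fall was at least 1.01-fold at both times. This call failed in 6 of 28 alternative settings at 24 h and 16 of 28 at 48 h. The other 3, 1424158_at, 1427729_at and 1459823_at, were under the median on all arrays, and none passed.

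Counted over all members, 7 of the 15 probe sets were lower and 0 higher at 24 h than at 0 h. Of all probe sets, 8.58% passed at 24 h, 4.72% lower and 3.86% higher. The same 7 member probe sets were lower at 48 h and 0 higher, where 8.47% of all passed, 3.80% lower and 4.67% higher. Each of the 6 genes had at least 1 of these probe sets, which for Ehd2 was 1435785_at, under the table median on all but 1 array. Within batches, the brightest sets of Cav2, Cavin1, Cavin2 and Cavin3 were lower in 5 of 5 at both times, as for Cav1, and that of Ehd2 in 3 of 5 at 24 h and 4 of 5 at 48 h. At 24 h, 7 of the 15 did not overlap with 0 h, all lower, against 3.44% of all probe sets, and at 48 h this was 4 of 15 against 2.99%. The median difference over the 15 was -0.26 at 24 h and -0.19 at 48 h, against -0.0064 and -0.0136 over all probe sets. Of the 15, 6 had a mean above the table median, and another 6 were under it on every array. With the brightest probe set of each gene, 5 of the 6 genes were lower and 0 higher at each time, with a median difference of -1.34 at 24 h and -1.32 at 48 h. Over all 18193 genes the median was -0.01 at 24 h and -0.02 at 48 h, with 6.66% lower and 5.44% higher at 24 h, and 5.27% lower and 6.45% higher at 48 h.

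**Figure D2:**
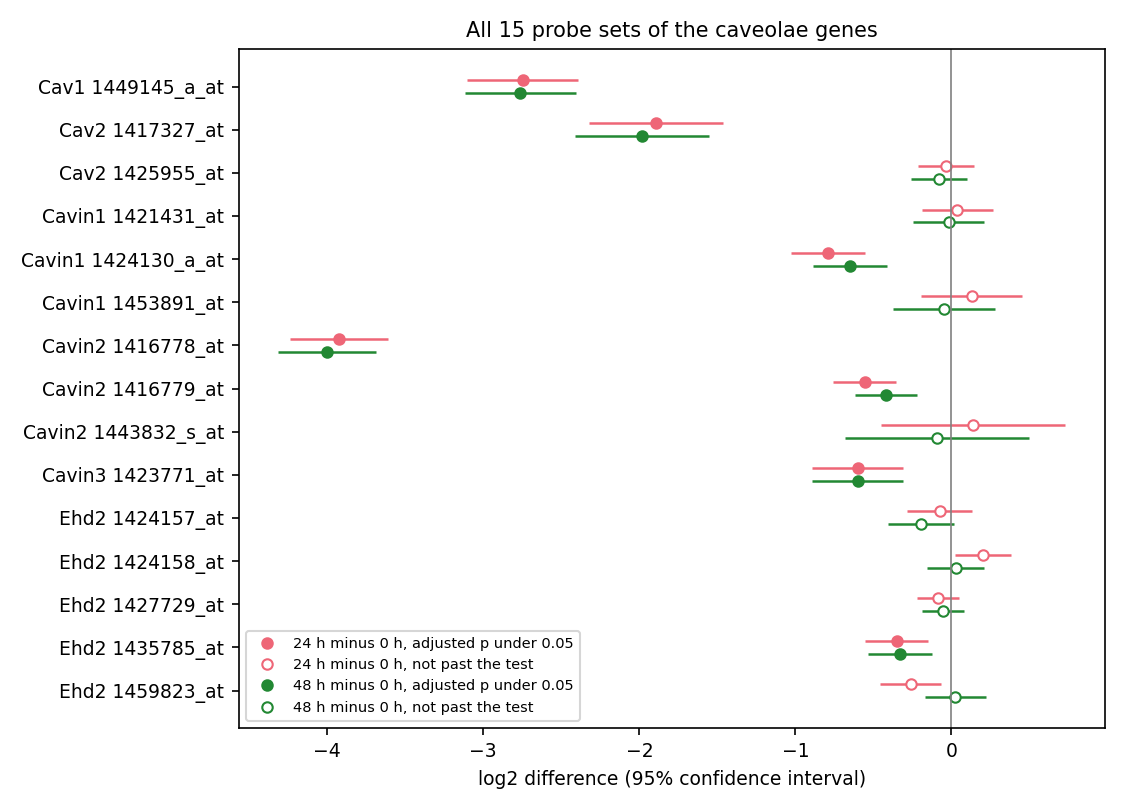
Log2 difference from 0 h for each of the 15 probe sets, with 95% intervals, at 24 h and at 48 h, ordered by gene, filled where the test was passed. The 7 filled probe sets at each time are all negative, and the open ones lie between -0.26 and 0.20.

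Between 48 h and 24 h no further change passed in any member probe set by limma (0 of 15, against 0.444% of all probe sets, lowest adjusted p = 0.191, limma), while 2 had an unadjusted p under 0.05. Intervals of the 48 h minus 24 h difference were -0.35 to 0.32 for Cav1, -0.50 to 0.32 for Cav2, -0.08 to 0.37 for Cavin1, -0.38 to 0.22 for Cavin2, -0.28 to 0.28 for Cavin3 and -0.32 to 0.08 for Ehd2. A mean signal on the linear scale over 4-fold up or down, the study's own selection rule, was met by Cav1 (ratios to 0 h of 0.149 at 24 h and 0.144 at 48 h) and, by its bound of at least 8.70-fold, by Cavin2 at both times. For Cav2 (1417327_at) the ratios were 0.257 at 24 h, short of the rule, and 0.247 at 48 h, just past it. Its cultured arrays lie around the table median. Its bounds of at least 3.50-fold at 24 h and at least 3.41-fold at 48 h do not reach 4-fold.

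The size of the fall differed between genes. Differences of 2 genes on each array were compared with exact permutation tests, 2-sided, over 45 tests (15 pairs in 3 comparisons, adjusted together). The smallest p such a test can give is 0.00433 against 0 h and 0.00216 for 48 h against 24 h. At 24 h against 0 h 14 of 15 pairs differed and at 48 h 13 of 15, and between 48 h and 24 h 0 did. With the mean over all probe sets of each gene, Cav2 and Cavin2 at 24 h no longer differed (adjusted p = 0.0749, exact permutation). Nor did Cav2 and Cavin3 or Cavin1 and Ehd2 at either time (lowest adjusted p = 0.130, exact permutation). Cavin1 and Cavin3 at 24 h (0.39, adjusted p = 0.0339, exact permutation) and Cavin3 and Ehd2 at 48 h (-0.50, adjusted p = 0.0406, exact permutation) then did. The measured fall of Cav1 was larger than that of Cav2 at 24 h, with a gap of -0.86 (adjusted p = 0.0156, exact permutation). Without the 2 arrays that stood apart this gap was -0.85 (adjusted p = 0.0549, exact permutation). Their gap at 48 h was -0.78 (adjusted p = 0.0361, exact permutation), a call lost in 8 of 17 runs that left out 1 array. Cav2 had 2 of 6 arrays above the table median at 24 h and 3 of 6 at 48 h. Its fall is thus a bound, and whether Cav1 truly fell further cannot be told. Cavin1 and Cavin3 were not told apart at 24 h (-0.19, adjusted p = 0.155, exact permutation), though they were without the 0 h array of batch 1 (-0.25, adjusted p = 0.0317). At 48 h Cavin1 and Cavin3 (-0.05, adjusted p = 0.891) and Cavin3 and Ehd2 were not told apart either (-0.41, adjusted p = 0.146, exact permutation). With the replicate block, 2-sided sign-flip tests of 5 batches can give no p under 0.0625, and called 0 pairs.

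The table median, a stand-in for background, was used to bound how far a dim gene fell. Cav1 fell less than Cavin2 (1.18 at 24 h, adjusted p = 0.00885, exact permutation), but with values under the table median raised to it the gap was 0.37 (adjusted p = 0.209, exact permutation), and the call was lost. The 48 h gap of 1.24 (adjusted p = 0.00885, exact permutation) became 0.36 with raised values (adjusted p = 0.123, exact permutation), and was lost too. With the mean over all probe sets of each gene, which takes in the dim Cavin2 sets, the gap at 24 h turned to -1.30. The Cavin3 to Ehd2 gap at 24 h was -0.53 (adjusted p = 0.0361, exact permutation), and -0.39 (adjusted p = 0.0974, exact permutation) with raised values. That call was also lost without the 0 h array of batch 1, 2 or 6, or the 24 h array of batch 2, 3, 4, 5 or 6 (gaps of -0.55 to -0.37, highest adjusted p = 0.0794, exact permutation).

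Endothelial cells are a rich source of caveolae, so the members were set against the mean of 15 endothelial markers on the same array (18 exact permutation tests, adjusted together). The mean of these markers ranged from 4.89 to 5.01 at 24 h and 4.39 to 4.76 at 48 h, against 5.23 to 5.55 at 0 h. At 24 h the marker list had 1 gene higher and 5 lower, and at 48 h 0 higher and 9 lower. The shares over all genes were 5.44% higher and 6.66% lower at 24 h, and 6.45% and 5.27% at 48 h. Ptprb, an endothelial receptor phosphatase, averaged 4.80 at 24 h and 4.33 at 48 h, against 7.15 at 0 h (-2.34 and -2.82, adjusted p = 3.08e-08 and 2.99e-09, limma). Flt1, a VEGF receptor, and Tek, the angiopoietin receptor, fell by 1.44 and 1.09 at 24 h (adjusted p = 4.56e-06 and 8.60e-05, limma). Cldn5, a tight junction protein, was the 1 marker higher at 24 h, at 3.89 against 3.46 at 0 h (0.44, adjusted p = 0.00216, limma), and 9 of the 15 markers had a negative difference. Pecam1, a junction protein that defines endothelium, had means of 3.25 (24 h) and 2.91 (48 h) in culture against 3.08 (0 h), under the table median, and so were the means of the other defining markers Cdh5, Vwf and Tie1.

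Cav1, Cav2 and Cavin2 fell further than the marker mean at 24 h, by -2.37 for Cav1, -1.51 for Cav2 and -3.54 for Cavin2 (adjusted p = 0.00866 each, exact permutation). At 48 h the contrasts were -2.00 for Cav1, -1.21 for Cav2 and -3.23 for Cavin2 (adjusted p = 0.00866 each, exact permutation). Since Cavin2 was under the table median on all cultured arrays, its contrast was -2.70 at 24 h and -2.39 at 48 h with values raised to that median (adjusted p = 0.00708 each, exact permutation). Cavin1 fell further at 24 h (-0.41, adjusted p = 0.0156, exact permutation) and did not pass at 48 h (0.12, adjusted p = 0.290, exact permutation). Ehd2 was higher relative to the mean at 48 h (0.57, adjusted p = 0.00866, exact permutation) and did not pass at 24 h (0.31, adjusted p = 0.0584, exact permutation). Against the 11 markers above the table median, Cavin1 no longer passed at 24 h (-0.22, adjusted p = 0.0550, exact permutation) and Ehd2 did (0.49, adjusted p = 0.00708, exact permutation). Against these markers Cavin1 (0.34, adjusted p = 0.00708, exact permutation) and Cavin3 (0.38, adjusted p = 0.0300, exact permutation) also passed at 48 h, as higher relative to the mean.

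At 48 h against 24 h, the contrast with the marker mean was 0.53 for Cavin1 and 0.39 for Cavin3 (adjusted p = 0.00866 each, exact permutation). The marker mean itself was 4.56 at 48 h, against 4.95 at 24 h. Cavin3's own difference between these times was -0.00016, with 1 of 6 arrays above the table median at each, and Cavin1 had 3 of 6 above it at 48 h and 2 of 6 at 24 h, so a further fall of either could be measured only in part. The contrast of Cav1 was 0.37 (adjusted p = 0.0425, exact permutation), a call lost without the 24 h array of batch 2, 4, 5 or 6 or the 48 h array of batch 2, 3, 5 or 6 (highest adjusted p = 0.0779, exact permutation). With the replicate block, sign-flip tests of 5 batches cannot pass against 0 h, where the smallest p is 0.0625. The mean within-batch contrasts at 24 h were -2.24 for Cav1, -1.47 for Cav2 and -3.56 for Cavin2, and at 48 h -2.01, -1.14 and -3.23. With 6 batches at 48 h against 24 h the smallest p is 0.03125, and none passed after adjustment. The part of endothelial content in the falls of the members was not tested.

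**Figure D3:**
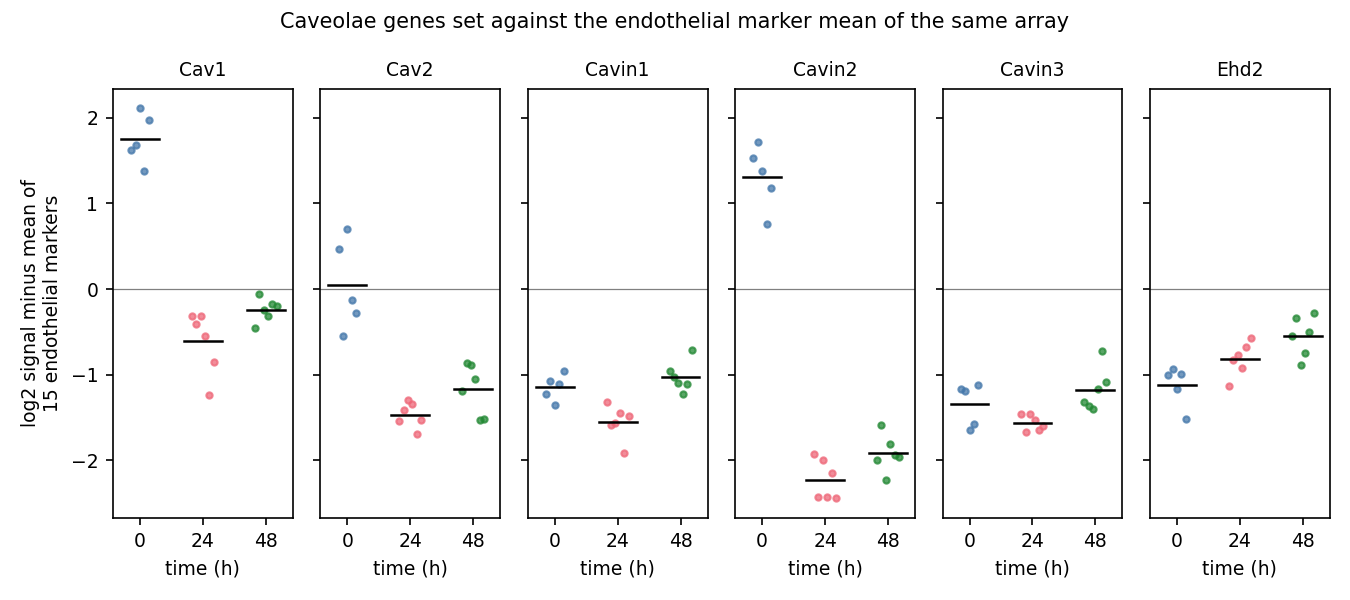
Log2 signal of each caveolae gene minus the mean of 15 endothelial markers on the same array, at 0, 24 and 48 h, points for arrays. Cav1, Cav2 and Cavin2 drop below their 0 h position at both later times, where Cavin2 is under the table median on every array, and Ehd2 lies higher at 48 h.

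Of the relatives and partners of the caveolar coat, 9 of 12 did not pass at 24 h and 8 of 12 at 48 h. Of 12 measured genes, 1 was higher and 2 lower at 24 h (median difference -0.02), and 1 higher and 3 lower at 48 h (-0.09). With the replicate block, or with the acinar covariate, 1 was lower at 48 h. Over all 18193 genes, 5.44% were higher and 6.66% lower at 24 h, and 6.45% higher and 5.27% lower at 48 h. Ehd4, an endosomal relative of Ehd2, averaged 5.60 at 24 h and 5.31 at 48 h, against 6.85 at 0 h, with differences of -1.25 at 24 h and -1.55 at 48 h (adjusted p = 0.000294 and 4.19e-05, limma). Ror1, a receptor known to bind cavin-1 in human cancer cells, fell by 1.14 at 24 h (adjusted p = 0.00115, limma). Flot1, a flotillin of other membrane domains, was higher by 0.78 (adjusted p = 2.03e-05, limma). Cav3 and Cavin4, the muscle members, were under the table median at all times.

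Genes of proteins carried in caveolae were split in the direction of their RNA signal. Of 10 measured, 2 were higher and 3 lower at 24 h, and the same numbers at 48 h (1 higher at 24 h with the replicate block, median differences -0.12 and -0.02). Plvap, which forms the diaphragms of endothelial caveolae and fenestrae, averaged 5.80 at 24 h and 5.12 at 48 h, against 7.74 at 0 h (-1.94 and -2.63, adjusted p = 6.25e-07 and 1.47e-08, limma). Kdr, the main endothelial receptor for VEGF, fell by 1.04 at 24 h and fell by 1.87 at 48 h (adjusted p = 0.000616 and 1.35e-06, limma). Igf1r, the insulin-like growth factor receptor, was higher by 1.26 at 24 h and by 1.43 at 48 h (adjusted p = 8.79e-07 at 24 h, limma). Insr, the insulin receptor, averaged 7.20 at 24 h and 7.28 at 48 h, against 7.68 at 0 h (-0.48 and -0.40, adjusted p = 0.00291 and 0.0123, limma). Clathrin endocytosis, another route of uptake, had 1 of 11 genes higher and 0 lower at each time, with Cltb at 0.33 and 0.28. For both lists the shares over all genes were 5.44% higher and 6.66% lower at 24 h, and 6.45% and 5.27% at 48 h.

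**Figure D4:**
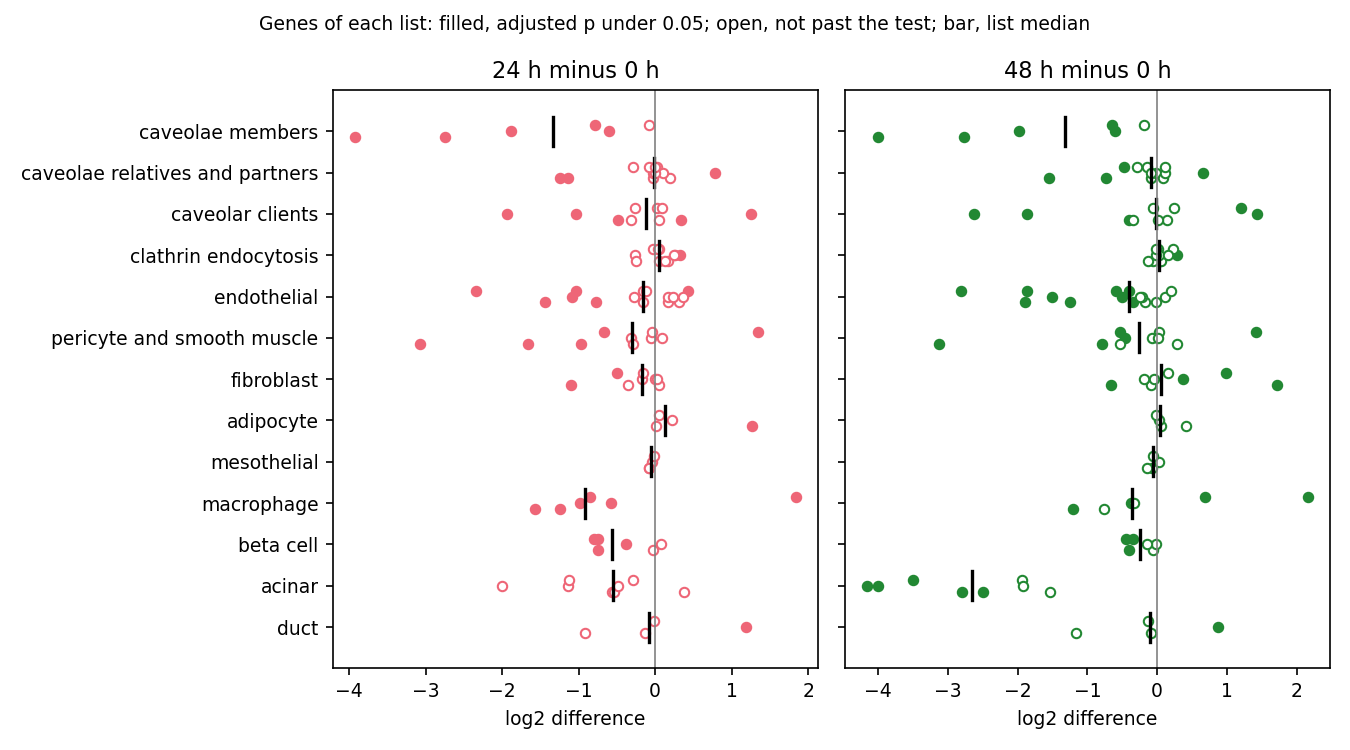
Log2 difference from 0 h of the genes in each list, at 24 h and 48 h, filled where the test was passed, with the median of each list as a black bar. The members' medians are -1.34 and -1.32, those of the endothelial list -0.16 and -0.40, and those of the clathrin list 0.06 and 0.03.

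Markers of other cell types were counted, among them smooth muscle cells, fibroblasts and adipocytes, in which caveolae are abundant. The members were not set against the means of these lists. Their counts stand beside shares over all genes of 5.44% higher and 6.66% lower at 24 h, and 6.45% and 5.27% at 48 h. Of 10 pericyte and smooth muscle markers, 1 was higher and 4 lower at both times, and the other 5 did not pass. Rgs5, a pericyte marker, differed from 0 h by -3.07 at 24 h and -3.12 at 48 h (adjusted p = 9.66e-08 and 7.84e-08, limma). Kcnj8, a potassium channel subunit of pericytes, was higher by 1.34 at 24 h and by 1.42 at 48 h (adjusted p = 2.41e-05 and 1.77e-05, limma). Notch3, a receptor of mural cells, differed by -0.67 and -0.54 (adjusted p = 1.70e-05 and 0.000248, limma). Acta2, smooth muscle actin, differed by -1.66 at 24 h (adjusted p = 2.17e-06, limma) and by -0.54 at 48 h (adjusted p = 0.0539, limma). Pdgfrb, the pericyte receptor for PDGF, did not pass (-0.06 and -0.08). Of 8 fibroblast markers, 0 were higher and 2 lower at 24 h, and 3 higher and 1 lower at 48 h. The collagen genes Col3a1 and Col1a2 were lower at 24 h (-1.10 and -0.50, adjusted p = 0.00186 and 0.0392, limma). Both were higher than at 0 h by 48 h (1.71 and 0.99, adjusted p = 2.85e-05 and 0.000213, limma). Adipocyte markers had 1 of 4 higher at 24 h and 0 at 48 h, and Adipoq, which defines adipocytes, averaged 2.41 at 24 h, 2.46 at 48 h and 2.40 at 0 h, under the table median. With the replicate block 1 adipocyte marker was higher at 48 h. The mean of the acinar list ranged from 4.04 to 7.86 at 24 h and 3.40 to 5.65 at 48 h, against 5.69 to 9.18 at 0 h. Mesothelial markers had 0 of 4 past the test at each time, duct markers 1 of 4 higher at each, macrophage markers 1 of 6 higher and 5 lower at 24 h and 2 higher and 2 lower at 48 h, and beta cell markers 4 of 6 lower at 24 h and 3 at 48 h. Acinar markers had 0 of 8 past the test at 24 h and 5 lower at 48 h. The part of these cell types in the results was not tested.

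For each member the 3 nearest of 11916 genes over the 17 arrays were taken. The measure was the root mean square difference after the 0 h mean was subtracted. Any member has nearest genes, and whether these are closer than other genes would be was not tested. Nearest to Cav1 were Ptprb (0.356), Cyyr1 (0.408) and Epas1 (0.440). Nearest to Cav2 were H2-Ab1 (0.352), Exoc3l2 (0.356) and Mgll (0.364). Nearest to Cavin2 were Btnl9 (0.404), Rgcc (0.802) and Timp3 (0.802). Nearest to Cavin1 were Btg1 (0.143), Zfyve27 (0.158) and Eogt (0.183), nearest to Cavin3 were Crhr1 (0.193), Gm5126 (0.195) and Spry1 (0.206), and nearest to Ehd2 were Fat2 (0.112), Rnf103 (0.118) and Cend1 (0.121). None of those nearest to Ehd2 passed at either time.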

How the data were processed

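Total RNA of mouse islets was amplified, biotin-labelled and hybridised to single-colour Affymetrix arrays. The authors deposited log2 values, 1 per probe set and array, made with RMA (per the submitters' processing notes, with no version named). That the logarithm is to base 2 was read off their range, 1.55 to 13.81. RMA subtracts background and quantile-normalizes arrays, so changes shared by most transcripts are removed and dim differences compressed. No detection call came with them; the table median of 3.52 stands in for background, and the number of arrays limits the precision.

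Of 45101 probe sets, 64 controls were dropped and 45037 tested without a filter. Of these, 34945 had 1 symbol in the platform annotation, 932 several and 9160 were not listed. A gene is represented by its probe set with the highest mean. The 3 comparisons were fitted with limma 3.58.1 in R 4.3.3 (1 mean per time, all 17 arrays, eBayes), and checked on simulated data. Single contrasts between genes used exact permutation tests over arrays. A bound raises values under the table median to it, a choice made after seeing the data, as was the endothelial mean over brighter markers. Batch numbers come from the study's design text, which states a shared batch; same-batch deviations correlated with a median of 0.00545 over 16 pairs, from -0.159 to 0.274, with 4 over 0.1. Arrays of 1 time are separate batches of islets, and p-values measure the spread between them.

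The members and lists were chosen with earlier results of these data known. Of 111 listed genes, 103 had a probe set with 1 symbol. Named genes are the members, defining endothelial markers, and for each member the 3 genes of most like pattern. Of a list, up to 4 genes with the lowest adjusted p among those past the test at 24 h are named. The adipocyte, macrophage, beta cell and duct lists are given as counts instead. Cav3, Cavin4, Adipoq, Cldn5, Pdgfrb, Nos3 and Cd36 were named outside these rules. Promoter windows are RefSeq's, build GRCm38.p6. Alternatives were batch as a block, array weights, other normalization, filters on dim and multi-gene probe sets, an acinar covariate, and leaving out arrays.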

Additional observations from a re-analysis of the deposited data

Results flagged for a closer look

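Of 45 groups of arrays tested (15 probe sets at 3 times), 4 held an array far from the rest of its group, where chance flags about 1 in 20 groups. The Cavin1 probe set 1421431_at read 3.31 on the 0 h array of batch 6, against 2.94 to 3.01 on the others at 0 h. The Cavin1 probe set 1453891_at read 4.22 on the 24 h array of batch 5, against 3.25 to 3.50 on the others. On that same array the Cavin2 probe set 1443832_s_at read 4.80, against 2.49 to 3.06. The Cavin2 probe set 1416779_at read 2.14 on the 24 h array of batch 4, against 2.03 to 2.06. None of them is the brightest probe set of its gene.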

How the results depend on the processing

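The falls of Cav1, Cav2 and the bright Cavin2 probe set passed in all 29 alternatives at both times, and those of Cavin1 and Cavin3 in 29 at 24 h and 28 at 48 h. With batch as a replicate block the count of member probe sets was 7 at both times, unchanged. With the acinar covariate it was 4 of 15 at 48 h. Leaving out 1 array gave 6 to 7 at each time, and 0 at 48 h against 24 h. Within-batch sign-flip tests with the replicate block called 0 gene pairs at 24 h and 0 at 48 h, and 0 endothelial contrasts in each comparison; 5 pairs allow no p under 0.0625. Leaving out 1 array gave 13 to 14 pairs at 24 h, 12 to 13 at 48 h and 0 to 1 at 48 h against 24 h (1 without the 24 h array of batch 1, 1 without the 48 h array of batch 5). For endothelial contrasts this gave 4 to 5, 4 to 4 and 2 to 4, and brighter markers gave 4 in place of 4, 6 in place of 4 and 5 in place of 3. With the mean over all probe sets of a gene, Cav1 minus Cavin2 turned to -1.30 at 24 h and -1.26 at 48 h. At 24 h, Cavin1 minus Cavin3 turned to 0.39 and Cavin1 minus the endothelial mean to 0.073. These means take in the dimmer probe sets, with 24 h differences of -0.56 and 0.14 for Cavin2 and 0.04 and 0.13 for Cavin1. The endothelial mean then also takes in the other probe sets of its markers. Low signal limits Cav2, Cavin1, Cavin2 and Cavin3 in culture.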
